A study of Homo sapiens with 8 samples.

Results

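A set of 10 genes widely used as markers of hypoxia outside metabolism and angiogenesis were followed in the Ewing sarcoma cell line SK-N-MC: NDRG1, ANKRD37, FAM162A, WSB1, RIOK3, ERO1A, TMEM45A, ZNF395, RORA and PPFIA4. They were taken by gene symbol from a table of 60332 genes, each symbol matched 1 gene, and all 10 were among the 15372 genes that reached 1 FPKM in 2 or more of the 8 libraries and were tested. FPKM is a level scaled for transcript length and for the mapped reads of a library. The 8 libraries formed 4 groups of 2: control cells in normoxia, control cells after 16 h in 1% oxygen, and eKD1 and eKD2 cells after the same hypoxia. By the growth protocol in the labels all groups carried dCas9-KRAB, a Cas9 that cannot cut joined to a repressor domain. Control cells, whose genetic variation the labels give as none, had the empty vector, and eKD1 and eKD2 cells each had 1 guide placing the repressor beside the GGAA-repeat enhancer of LOXHD1. The lines were drug-selected pools and not clones. Normoxic eKD cells were not analysed here, so whether the guides altered the response to oxygen, as opposed to the level in hypoxia, cannot be told apart.

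In low oxygen the prolyl hydroxylases that mark HIF alpha subunits for destruction lose activity, and HIF alpha pairs with ARNT and binds short DNA elements with the core ACGTG or GCGTG. Its best known targets serve glycolysis and blood vessel growth, but others act elsewhere. Among the 10 markers, FAM162A is a mitochondrial protein, ERO1A an oxidase that drives disulfide formation in the endoplasmic reticulum, WSB1 a substrate adaptor of a ubiquitin ligase, RIOK3 an atypical kinase of the RIO family, ZNF395 a zinc finger protein, RORA a nuclear receptor that acts on clock genes, PPFIA4 a liprin scaffold protein, TMEM45A a membrane protein, ANKRD37 an ankyrin repeat protein and NDRG1 a stress-responsive protein of the NDRG family.

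Promoter sequences were available for 8 of the 10 genes (RefSeq, GRCh38.p14, 250 bases before to 50 after the start). ZNF395 and NDRG1 had no entry. The windows were searched for ACGTG and GCGTG on both strands. A palindrome CACGTG holds ACGTG on each strand and counts as 2 overlapping matches. ANKRD37, WSB1, ERO1A and PPFIA4 had 3 matches each, FAM162A had 4, RIOK3 had 2, and TMEM45A and RORA had 0. The RORA window lies at a start inside the gene, far from its outermost start, so it does not describe the promoter there. Of 35116 promoters of the same length, 48.4% held at least 1 match and 23.1% held at least 2, with ACGTG in 21.4% and GCGTG in 36.5%. The windows of 5 genes are shown with the matches in capitals: ANKRD37 and PPFIA4, which had the largest changes in hypoxia; FAM162A, which had the most matches; RIOK3, whose level barely differed between normoxia and hypoxia; and TMEM45A, which rose with no match in this window.
ANKRD37, chr4:185396591-185396890, + strand: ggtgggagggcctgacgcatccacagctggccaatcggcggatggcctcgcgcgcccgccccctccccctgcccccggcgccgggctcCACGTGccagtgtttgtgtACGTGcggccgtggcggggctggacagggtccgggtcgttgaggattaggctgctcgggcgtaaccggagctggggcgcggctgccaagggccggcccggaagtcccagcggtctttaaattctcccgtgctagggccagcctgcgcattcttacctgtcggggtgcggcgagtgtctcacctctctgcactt
PPFIA4, chr1:203026241-203026540, + strand: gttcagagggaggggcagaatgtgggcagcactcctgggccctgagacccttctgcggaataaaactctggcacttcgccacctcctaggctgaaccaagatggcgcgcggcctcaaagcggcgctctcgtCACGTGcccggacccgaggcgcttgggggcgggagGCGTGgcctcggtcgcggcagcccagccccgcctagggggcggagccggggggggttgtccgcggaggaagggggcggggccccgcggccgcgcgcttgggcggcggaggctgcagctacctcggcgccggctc
FAM162A, chr3:122383932-122384231, + strand: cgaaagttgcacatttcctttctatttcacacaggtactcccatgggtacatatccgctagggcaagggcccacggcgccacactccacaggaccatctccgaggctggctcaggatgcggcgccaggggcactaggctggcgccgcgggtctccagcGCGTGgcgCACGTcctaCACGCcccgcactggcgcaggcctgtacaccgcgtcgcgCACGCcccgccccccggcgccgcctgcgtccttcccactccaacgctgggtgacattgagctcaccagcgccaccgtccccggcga
RIOK3, chr18:23453037-23453336, + strand: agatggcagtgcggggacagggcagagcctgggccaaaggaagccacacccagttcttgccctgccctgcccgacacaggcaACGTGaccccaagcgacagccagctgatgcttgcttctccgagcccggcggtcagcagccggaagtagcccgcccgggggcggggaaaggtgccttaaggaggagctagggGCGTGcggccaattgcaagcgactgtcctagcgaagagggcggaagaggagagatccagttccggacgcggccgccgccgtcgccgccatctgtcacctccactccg
TMEM45A, chr3:100492369-100492668, + strand: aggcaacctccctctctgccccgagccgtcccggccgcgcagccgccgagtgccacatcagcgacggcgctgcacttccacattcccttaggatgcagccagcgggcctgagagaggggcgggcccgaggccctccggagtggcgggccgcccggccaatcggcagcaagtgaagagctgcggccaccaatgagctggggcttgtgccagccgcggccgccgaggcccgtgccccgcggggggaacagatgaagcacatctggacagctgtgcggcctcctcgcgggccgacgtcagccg

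The palindrome stood 162 bases before the start of ANKRD37 and 119 before that of PPFIA4. In FAM162A all 4 matches lay within the 92 bases before the start. A match describes letters in a window, and binding was not measured.

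The guides were checked on LOXHD1, whose level was 156 and 169 FPKM in control normoxia, 93.0 and 91.1 in control hypoxia, 17.3 and 15.0 in eKD1, and 11.7 and 11.8 in eKD2. Against control hypoxia it fell by 2.44 on the log2 scale in eKD1 (limma adjusted p = 0.0371) and by 2.87 in eKD2 (limma adjusted p = 0.00617). All 6 Ewing sarcoma markers (CD99, FLI1, NKX2-2, NR0B1, STEAP1 and LIPI) were detected in every library. In hypoxia CD99 rose by 0.38, and FLI1, NR0B1, STEAP1 and LIPI fell by 0.74, 0.87, 0.79 and 2.17 on the log2 scale (limma adjusted p = 0.0154, 0.011, 0.0122, 0.00809 and 0.00665). The CD99 call was lost with equal FPKM totals. In eKD2 against control hypoxia CD99 was lower (-0.34) and NR0B1 (1.06) and LIPI (0.81) were higher (limma adjusted p = 0.0339, 0.0273 and 0.0359). Of 6 markers of other cell types, PECAM1 had no entry under this symbol and so no values, and MYOD1 and ALB were too low to be tested. EPCAM was at 3.39 to 5.80 FPKM, COL1A1 at 34.1 to 74.3 and PTPRC, a leukocyte gene, at 4.87 to 23.8. PTPRC fell by 1.98 on the log2 scale from normoxia to hypoxia (limma adjusted p = 0.00684), and COL1A1 rose by 0.63 (limma adjusted p = 0.0219). The part of these genes in the results below was not tested. All libraries came from the same cultured cell line. Fewer cells that express a gene and less of its RNA per cell cannot be told apart in such bulk libraries. The relative depth of the libraries ran from 55.9% (control normoxia replicate 2) to 100% (control hypoxia replicate 1), and absolute depth is unknown.

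The first comparison asked how the markers responded to oxygen in control cells. In hypoxia, 9 of the 10 genes rose and RIOK3 did not pass the test. Over all genes tested, 16.2% were called higher. Both hypoxia libraries lay above both normoxia libraries for 9 members, against 35.9% of all genes. The median log2 change of the 10 was 1.76, against 0.01 for all genes tested. Changes are on the scale log2(FPKM + 1), which understates those of low genes, and calls were made below an adjusted p of 0.05 over all 15372 genes. The group means spanned 0.615 FPKM (ANKRD37) to 184 FPKM (FAM162A) in normoxia and 6.47 FPKM (RORA) to 1194 FPKM (FAM162A) in hypoxia.

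**Figure D1:**
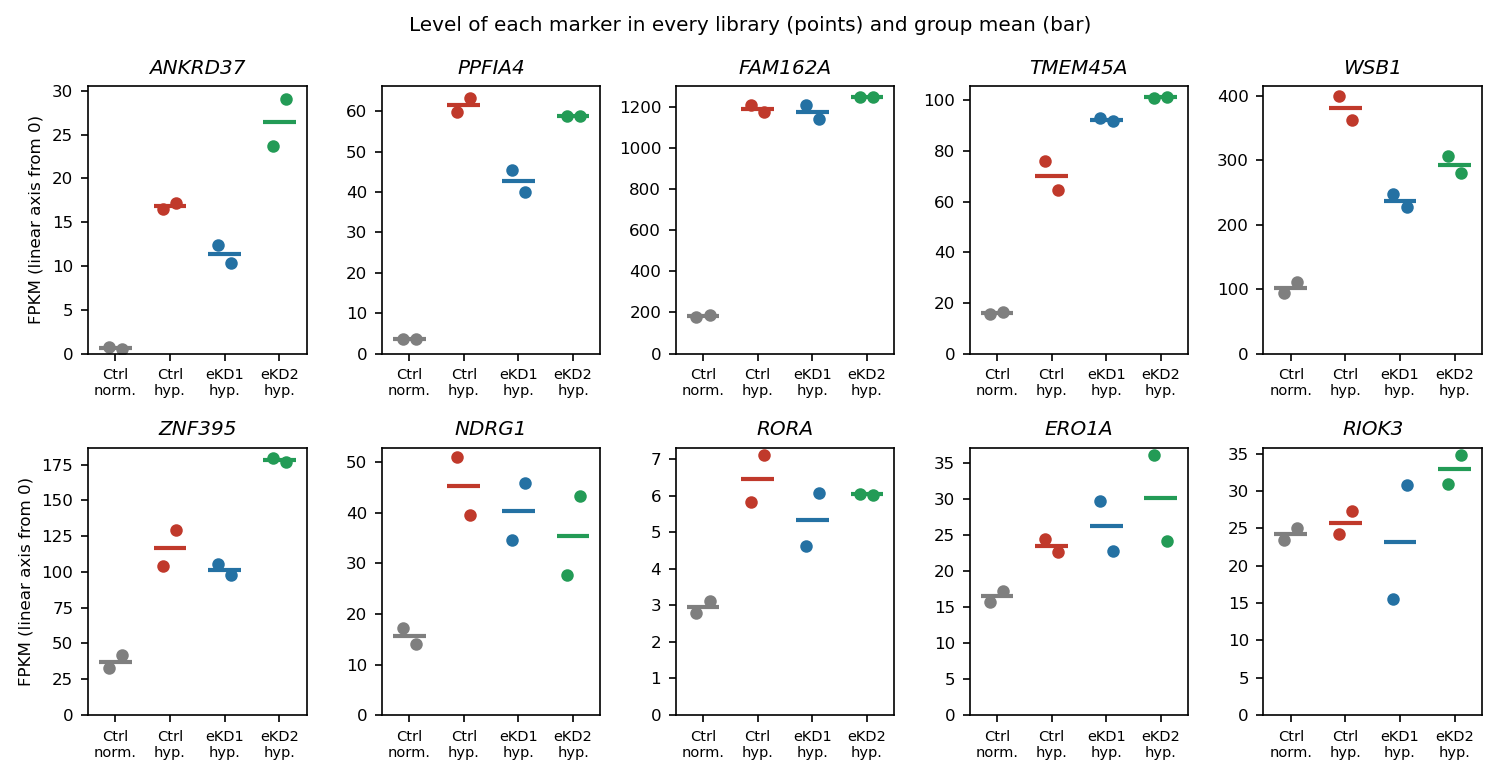
Level of the 10 markers in FPKM (linear vertical axes from 0) in the 2 libraries of control normoxia, control hypoxia, eKD1 hypoxia and eKD2 hypoxia; points are libraries and bars are group means. The normoxia points lie below all hypoxia points for every gene but RIOK3, whose eKD1 libraries stood at 15.6 and 30.8 FPKM.

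PPFIA4 and ANKRD37 had the largest changes. PPFIA4 (ENSG00000143847.15_2, plus strand, chromosome 1, 202995619 to 203047868; positions are on GRCh37 by GENCODE version 44) was at 3.60 and 3.56 FPKM in normoxia and at 59.7 and 63.3 in hypoxia. It rose by 3.77 on the log2 scale (95% interval 3.51 to 4.04, limma adjusted p = 0.00273), and 0.208% of the genes tested had a larger rise. ANKRD37 (ENSG00000186352.8_2, plus strand, chromosome 4, 186317175 to 186321782) was nearly silent in normoxia, at 0.765 and 0.464 FPKM, and reached 16.5 and 17.2 in hypoxia. Its log2 change was 3.47 (interval 3.01 to 3.94, limma adjusted p = 0.00657). The ratio of its mean FPKM was 27.4, against 11.1 on the scale with 1 added. With 0.1 added in place of 1 the log2 change of ANKRD37 was 4.60.

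FAM162A was the most abundant marker in every group and the one with the closest duplicates in hypoxia. Its level (ENSG00000114023.15_2, plus strand, chromosome 3, 122103008 to 122131181) was 179 and 189 FPKM in normoxia and 1210 and 1179 in hypoxia, a rise of 2.69 (interval 2.56 to 2.82, limma adjusted p = 0.0014). TMEM45A, on the same chromosome (ENSG00000181458.10_2, plus strand, 100211463 to 100296288), was at 15.6 and 16.3 FPKM in normoxia and 75.9 and 64.4 in hypoxia. It rose by 2.07 (interval 1.76 to 2.38, limma adjusted p = 0.00665). WSB1 (ENSG00000109046.14_2, plus strand, chromosome 17, 25621102 to 25642952) was already abundant in normoxia, at 93.3 and 110 FPKM, and was at 400 and 363 in hypoxia. Its rise was 1.90 (interval 1.59 to 2.20, limma adjusted p = 0.00681).

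ZNF395 (ENSG00000186918.13_3, minus strand, chromosome 8, 28203107 to 28260218) was at 32.8 and 41.8 FPKM in normoxia and at 104 and 129 in hypoxia, a rise of 1.62 (interval 1.13 to 2.12, limma adjusted p = 0.0112). NDRG1 (ENSG00000104419.14_4, minus strand, chromosome 8, 134249418 to 134314265) went from 17.2 and 14.1 FPKM to 51.1 and 39.6. Its rise was 1.47 (interval 0.97 to 1.97, limma adjusted p = 0.0135), and the call was lost when genes with low values were also tested (limma adjusted p = 0.0537). The groups were far apart for both genes, although the duplicates of NDRG1 in hypoxia differed by 1.29 times.

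RORA and ERO1A rose less. RORA (ENSG00000069667.15_3, minus strand, chromosome 15, 60780483 to 61521501) was the least abundant marker in hypoxia, at 2.79 and 3.12 FPKM in normoxia and 5.83 and 7.11 in hypoxia. It rose by 0.91 (interval 0.45 to 1.38, limma adjusted p = 0.0276). ERO1A (ENSG00000197930.12_3, minus strand, chromosome 14, 53106633 to 53162618) was at 15.8 and 17.2 FPKM in normoxia and 24.5 and 22.6 in hypoxia, a rise of 0.49 (interval 0.20 to 0.78, limma adjusted p = 0.0363), and 22% of all genes had a larger one. The ERO1A call was lost in a shared fit of all 8 libraries, with no filter on low values and with FPKM totals set equal, where its log2 change was 0.26. The RORA call was lost with no filter.

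RIOK3 (ENSG00000101782.14_3, plus strand, chromosome 18, 21033251 to 21066567) stood apart. Its level was 23.5 and 25.1 FPKM in normoxia and 24.2 and 27.3 in hypoxia, so the groups overlapped. The log2 difference was 0.08 (interval -0.21 to 0.37, limma adjusted p = 0.583), and with equal FPKM totals it was -0.15. Of all genes tested, 45.8% had a higher value.

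**Figure D2:**
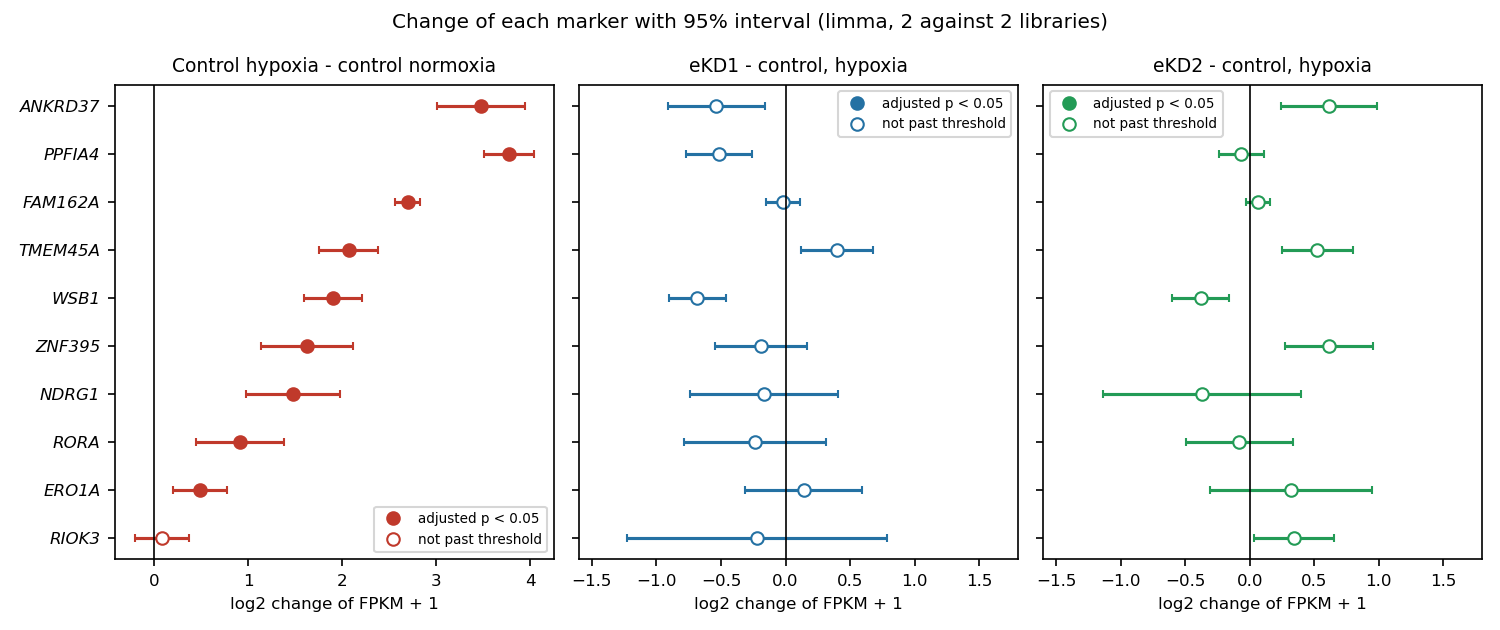
Log2 change of FPKM + 1 (horizontal axes) for each marker, with its 95% interval from limma, for control hypoxia minus control normoxia, eKD1 minus control in hypoxia and eKD2 minus control in hypoxia; filled points passed an adjusted p of 0.05. In the first panel 9 points are filled, and in the eKD panels 0 are, with ANKRD37 at -0.53 in eKD1 and 0.61 in eKD2. The first panel has a wider axis than the others.

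Leaving out 1 library left too little information for the fit of a single comparison, which then called 0 of the 15372 genes whichever library was left out (control normoxia 1 or 2, control hypoxia 1 or 2). In a fit that shared its spread with the other groups, most members rose whichever library was left out, against a minority of all genes tested. The members' median log2 change then ran from 1.69 to 1.91. ERO1A was not called in any of these fits, and RORA not without control hypoxia replicate 2. The call of NDRG1 held in all 4. The lone library is assumed there to vary like the other groups.

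Paralogues of the markers were read beside them. Of the paralogues 12 were tested, of which 3 rose and 2 fell in hypoxia, with a median log2 change of 0.23. The shares of all genes tested were 16.2% called higher and 16% called lower. With equal FPKM totals, 2 rose and 4 fell and ZNF704 lost its call. In the NDRG family, NDRG2 rose from 23.2 and 22.1 FPKM to 47.1 and 44.9 (log2 change 0.99, limma adjusted p = 0.0082) and NDRG3 from 17.7 and 17.1 to 30.4 and 28.6 (0.73, limma adjusted p = 0.0131), while NDRG4 was at 0.313 to 1.31 FPKM throughout, with a log2 difference of 0.34. Of the liprins, PPFIA1 fell by 0.61 (limma adjusted p = 0.0481), and PPFIA2 and PPFIA3 differed by -0.22 and -0.17 and were not called. RIOK1, the paralogue of RIOK3 that acts in maturation of the small ribosomal subunit, fell from 78.1 and 65.5 FPKM to 30.5 and 31.3 (log2 change -1.19, limma adjusted p = 0.00944), and RIOK2 differed by -0.14. The groups did not overlap for RIOK1.

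ZNF704 rose by 0.74 (limma adjusted p = 0.0454). SLC2A4RG differed by 0.67, WSB2 by 0.21 and ERO1B by 0.25, and none of these 3 was called. TMEM45B, RORB and FAM162B were not tested because of their low values, the highest of which was 0.146 FPKM. TMEM45A and FAM162A therefore had no tested paralogue. The difference between a marker and its paralogue was not tested.

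**Figure D3:**
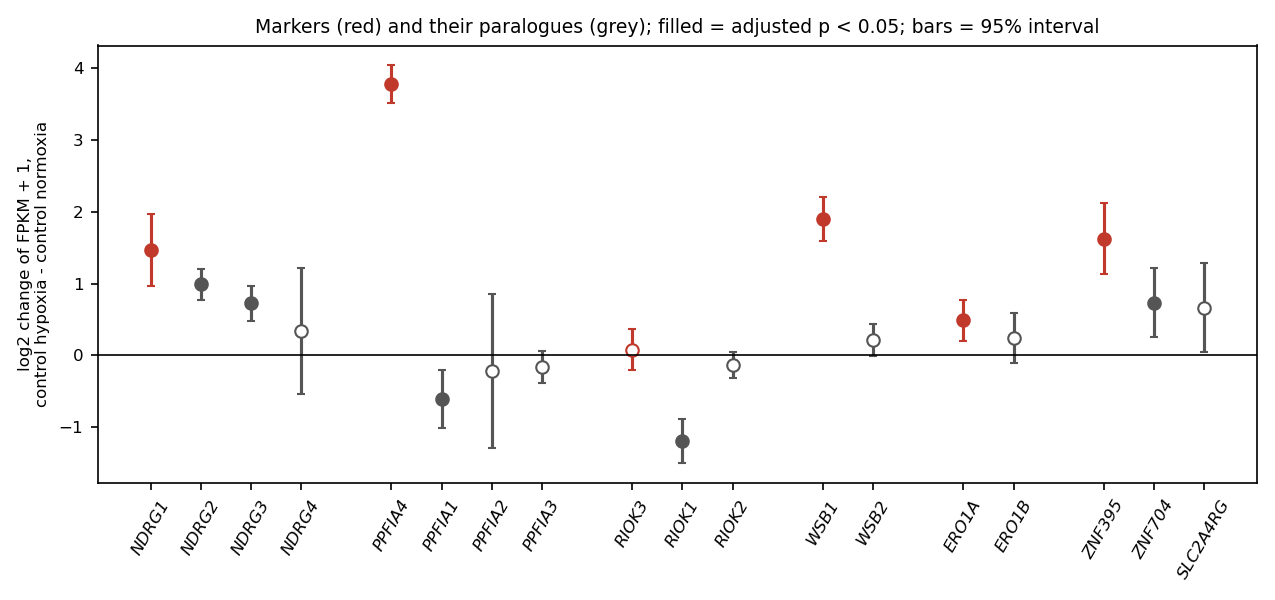
Log2 change of FPKM + 1 from control normoxia to control hypoxia (vertical axis) for 6 markers (red) and their tested paralogues (grey), with 95% intervals from limma; filled points passed an adjusted p of 0.05. PPFIA4 stands at 3.77 and PPFIA1 at -0.61, while RIOK3 lies at 0.08 and RIOK1 at -1.19.

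Genes that work with the markers were counted in the same way. Of 8 genes of oxidative folding in the endoplasmic reticulum, the setting in which ERO1A reoxidizes protein disulfide isomerases, 6 rose in hypoxia and 0 fell (median 0.54), against 5 and 1 with equal FPKM totals. The largest changes were those of QSOX1 (1.03), P4HB (0.94), TXNDC5 (0.69) and PDIA3 (0.57). Of 6 genes for ligase subunits and substrates linked to WSB1, ELOB rose by 0.75 (limma adjusted p = 0.00653) and ELOC fell by 0.32 (limma adjusted p = 0.045). Both encode elongins that bind SOCS box proteins. Of the clock genes that respond to RORA, 5 were tested and 0 were called (limma adjusted p 0.192 to 0.508), and 0 had an unadjusted p under 0.05. NPAS2 was too low to be tested.

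Of 7 HIF subunit and hydroxylase genes 5 were tested: HIF3A rose by 1.52 and ARNT by 0.86, and HIF1A fell by 1.58 (limma adjusted p = 0.0101, 0.0143 and 0.00809). EPAS1 and ARNT2 were not tested because of their low values, at most 0.359 and 0.401 FPKM. Among 24 other hypoxia markers outside metabolism, 23 were tested, 19 rose and CITED2 fell (-0.39). The median was 1.69, and the largest rises were those of DDIT4 (5.82), BNIP3 (4.14), P4HA2 (3.58) and P4HA1 (3.09). Among 24 metabolic and angiogenic markers, 23 were tested, 21 rose and 0 fell. Their median was 2.19, led by CA9 (6.29, listed at 0 in both normoxia libraries), ALDOC (5.46), PDK1 (4.35) and HK1 (4.13). The median of the 10 markers, 1.76, lay between these.

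**Figure D4:**
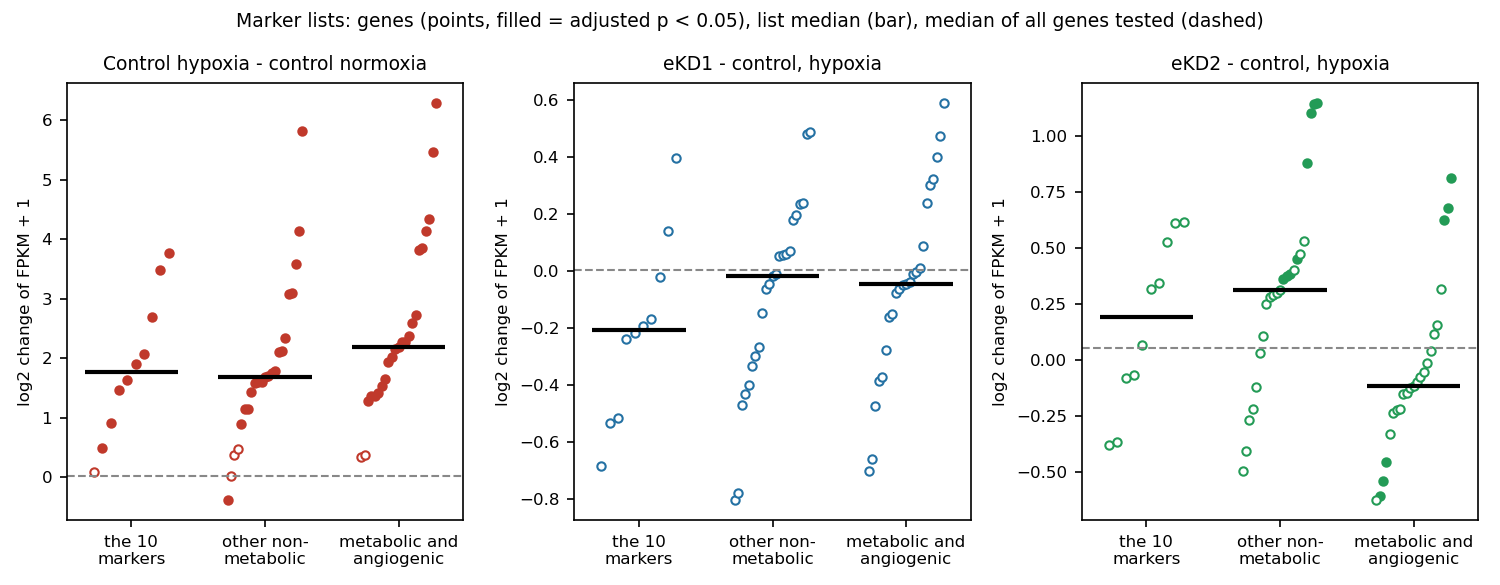
Log2 change of FPKM + 1 (vertical axes, on different scales) for the genes of 3 lists, the 10 markers, the other non-metabolic markers and the metabolic and angiogenic markers, in control hypoxia minus control normoxia, eKD1 minus control in hypoxia and eKD2 minus control in hypoxia; filled points passed an adjusted p of 0.05, bars are list medians and the dashed line is the median of all genes tested. In hypoxia the medians are 1.76, 1.69 and 2.19, and in eKD2 they are 0.19, 0.31 and -0.12.

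The next comparisons asked whether cells with the LOXHD1 enhancer repressed differed from control cells in hypoxia. They share the control hypoxia libraries with the first comparison and with each other. In eKD1, 0 of the 10 markers were called by limma, against 0.0651% of all genes, and 4 (TMEM45A, ANKRD37, WSB1 and PPFIA4) had an unadjusted p under 0.05, against 21.7%. Both eKD1 libraries lay above both controls for TMEM45A alone (27.6% of all genes) and below both for ANKRD37, WSB1 and PPFIA4 (26%). The median log2 difference was -0.21, against 0.00 for all genes. It was -0.07 without eKD1 replicate 1 and -0.38 without eKD1 replicate 2.

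WSB1 had the largest difference in eKD1. It was at 247 and 227 FPKM, against 400 and 363 in control hypoxia, a log2 difference of -0.68 (interval -0.90 to -0.46, limma adjusted p = 0.102). PPFIA4 was at 45.5 and 40.1 FPKM, against 59.7 and 63.3, a difference of -0.52 (interval -0.78 to -0.26, limma adjusted p = 0.12). The shared fit of all 8 libraries called both lower (limma adjusted p = 0.0239 and 0.033), among 761 of 15372 genes. Both calls were lost whichever library of the comparison was left out, as were most calls over all genes. The difference then ran from -0.754 to -0.615 for WSB1 and from -0.604 to -0.428 for PPFIA4. ANKRD37 was at 12.4 and 10.3 FPKM, against 16.5 and 17.2, a difference of -0.53 (interval -0.91 to -0.16, limma adjusted p = 0.16). TMEM45A was at 92.8 and 91.9 FPKM, against 75.9 and 64.4, a difference of 0.40 (interval 0.12 to 0.68, limma adjusted p = 0.161).

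The other 6 markers overlapped between eKD1 and control hypoxia. FAM162A, at 1212 and 1144 FPKM, had the narrowest interval, from -0.15 to 0.11. NDRG1 was at 34.7 and 46.0 FPKM, ZNF395 at 105 and 97.7, RORA at 4.63 and 6.07 and ERO1A at 29.8 and 22.8, with differences between -0.24 and 0.14. RIOK3 was at 15.6 and 30.8 FPKM, so its duplicates differed by 1.98 times, a gap that 5.44% of all genes reached in eKD1. Its log2 difference was -0.22 (interval -1.23 to 0.79), but 0.25 without eKD1 replicate 1 and -0.69 without eKD1 replicate 2. This was the widest interval among the 10 markers in eKD1.

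In eKD2, 0 markers were called by limma, against 9.61% of all genes (1477, which fell to 28 with no variance trend), and 5 (ANKRD37, WSB1, RIOK3, TMEM45A and ZNF395) had an unadjusted p under 0.05, against 32.8%. Both eKD2 libraries lay above both controls for ANKRD37, FAM162A, RIOK3, TMEM45A and ZNF395 (35.8% of all genes) and below both for WSB1 and PPFIA4 (26.4%). The median log2 difference was 0.19, against 0.05 for all genes, and 0.05 without eKD2 replicate 1. Of the 10 differences, 6 were positive and 4 negative.

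ZNF395 was at 180 and 177 FPKM in eKD2, against 104 and 129 in control hypoxia, a log2 difference of 0.61 (interval 0.28 to 0.95, limma adjusted p = 0.0595). ANKRD37 was at 23.7 and 29.1 FPKM, against 16.5 and 17.2, a difference of 0.61 (interval 0.24 to 0.99, limma adjusted p = 0.0692). TMEM45A was at 101 FPKM in both libraries, against 75.9 and 64.4, a difference of 0.53 (interval 0.25 to 0.80, limma adjusted p = 0.0568). All eKD2 libraries lay above the controls for these 3 genes, which did not pass the threshold. The shared fit called TMEM45A and ZNF395 higher (limma adjusted p = 0.0132 and 0.0332). The ZNF395 call was lost whichever library of the comparison was left out, and the TMEM45A call held only without control hypoxia replicate 1. Most calls over all genes were lost in these fits too. The difference then ran from 0.463 to 0.766 for ZNF395 and from 0.409 to 0.642 for TMEM45A.

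WSB1 was at 306 and 280 FPKM in eKD2, a difference of -0.38 (interval -0.60 to -0.16, limma adjusted p = 0.0648), and was called lower after median-of-ratios rescaling (limma adjusted p = 0.0477). WSB1 had the lowest log2 difference of the 10 in each eKD group. RIOK3 was at 31.0 and 34.9 FPKM, a difference of 0.34 (interval 0.03 to 0.65, limma adjusted p = 0.129). PPFIA4 was at 58.7 and 58.8 FPKM, a difference of -0.06 (interval -0.24 to 0.11), and FAM162A at 1250 and 1251, a difference of 0.07 (interval -0.03 to 0.16). NDRG1 (27.8 and 43.3 FPKM), ERO1A (36.2 and 24.2) and RORA (6.06 and 6.03) overlapped the controls, with differences of -0.37, 0.32 and -0.08.

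Of the other lists, 0 genes were called in eKD1, while LOXHD1 was. In eKD2, 8 of 23 other non-metabolic markers were higher and 0 lower, against 5.8% and 3.81% of all genes. The count was 6 higher with median-of-ratios rescaling and 9 with equal FPKM totals, and 0 lower in both. The largest differences were in MXI1 (1.15), BHLHE41 (1.14), VLDLR (1.10) and CITED2 (0.88). BHLHE41, counted among the 8, reached 1 FPKM only in the eKD2 libraries (1.36 and 1.12 FPKM), near the filter. It was tested only because of the group in which it was high, so its call carries no weight. Of 23 metabolic markers, 3 were higher and 3 lower, led by PDK1 (0.81), SLC2A1 (0.68), HK2 (0.63) and ALDOA (-0.61). Among paralogues, RIOK1 (0.89) and PPFIA1 (0.64) were higher in eKD2 (limma adjusted p = 0.0294 and 0.0376). These are the paralogues that fell in hypoxia, a comparison with the same control libraries. Of the folding, ligase and HIF lists, PDIA4 (-0.29) and PRDX4 (-0.37) were lower, and CUL5 (0.70) and HIF1A (0.73) were higher, and the calls of PDIA4 and PRDX4 were lost with equal FPKM totals. PTPRC was higher by 1.28 in eKD2 (limma adjusted p = 0.0287).

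The guides were then compared with each other. By limma 0 markers were called, against 0.403% of all genes, and 4 (ANKRD37, WSB1, ZNF395 and PPFIA4) had an unadjusted p under 0.05, against 23.6%. Both eKD2 libraries lay above both eKD1 libraries for 7 markers, against 31.9% of all genes. The median log2 difference was 0.24, against 0.05 for all genes. ZNF395 was higher in eKD2 by 0.81 (interval 0.63 to 0.98, limma adjusted p = 0.0529) and ANKRD37 by 1.15 (interval 0.68 to 1.62, limma adjusted p = 0.0866). ANKRD37 was the single marker with both eKD1 libraries below and both eKD2 libraries above the controls. Of all genes, 26% lay below both controls in eKD1 and 35.8% above both in eKD2. The share of all genes with both traits was not computed. The shared fit called ANKRD37, ZNF395 and PPFIA4 (limma adjusted p = 0.0147, 0.0246 and 0.033), among 1391 genes against 62. These 3 calls were lost whichever library of the comparison was left out, as were most calls over all genes. The difference then ran from 1.005 to 1.291 for ANKRD37, 0.755 to 0.861 for ZNF395 and 0.363 to 0.539 for PPFIA4. Of the genes of the other lists, MXI1 was called, higher in eKD2 by 1.21 (limma adjusted p = 0.0461), a call lost under both rescalings (limma adjusted p = 0.0524 and 0.0551). A single call among so few called genes is less certain.

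The last comparisons set the eKD groups against control normoxia. In eKD1, 7 of 10 rose, against 6.06% of all genes, and in eKD2 7 of 10 rose, against 11.5%. ANKRD37, FAM162A, WSB1, TMEM45A, ZNF395 and PPFIA4 were called in both, NDRG1 in eKD1 and RORA in eKD2. ERO1A was above normoxia in every eKD library (log2 difference 0.63 and 0.81, limma adjusted p = 0.0959 and 0.0855), and RIOK3 was not called in either. As a share of the log2 change in control cells, FAM162A stood at 99.2% in eKD1 and 102% in eKD2, PPFIA4 at 86.3% and 98.3%, ANKRD37 at 84.6% and 118%, and WSB1 at 64% and 80%. TMEM45A was at 119% and 125%, NDRG1 at 88.6% and 75.1%, ZNF395 at 88.1% and 138%, RORA at 74% and 91.4%, and ERO1A at 129% and 165%. RIOK3 is left out, as its change in control cells was not called. These shares have no test. With no filter on low values the eKD1 count was 0, with 7 of 27155 genes called, and with no variance trend it was 4, with 298 of 15372 called. Without 1 library of the comparison, the single fit had too little information to call any gene. The shared fit still called most markers in both, against a minority of all genes tested. The members' median then ran from 1.35 to 1.47 in eKD1 and from 1.73 to 2.02 in eKD2. Calls of some markers changed in the shared fit. In the eKD1 comparison NDRG1 was not called without control normoxia replicate 2 or eKD1 replicate 2, RORA was called without eKD1 replicate 1, and RIOK3 was called lower without eKD1 replicate 2. In the eKD2 comparison RORA was not called without control normoxia replicate 1, eKD2 replicate 1 or eKD2 replicate 2, NDRG1 was called without eKD2 replicate 1 and ERO1A without eKD2 replicate 2.

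Several markers share exon bases with other genes, and the libraries were not strand-marked, so the split of reads between such genes is uncertain. By GENCODE version 44 on GRCh37, 40.3% of the exon bases of ANKRD37 lie in UFSP2 on the opposite strand and 35.0% of those of ZNF395 in FBXO16 on the same strand. FAM162A shares 4.2% with WDR5B, ERO1A 7.7% and NDRG1 6.3% with long non-coding RNA genes, and RORA 3.3% with RORA-AS1. UFSP2, a protease for the UFM1 modifier, was at 51.6 and 53.4 FPKM in control normoxia, 93.8 and 81.6 in control hypoxia, 59.1 and 59.8 in eKD1 and 87.6 and 114 in eKD2. It rose by 0.73 in hypoxia (limma adjusted p = 0.0146), and its eKD1 libraries lay below both controls, as those of ANKRD37 did. FBXO16 was at 9.18 and 7.30 FPKM in control normoxia, 19.0 and 21.9 in control hypoxia, 10.5 and 15.5 in eKD1 and 20.6 and 20.4 in eKD2, and it rose by 1.22 in hypoxia (limma adjusted p = 0.0153). WDR5B fell by 1.50 (limma adjusted p = 0.012), opposite to FAM162A. These genes were chosen after the data were seen, and the part of shared reads in the levels of ANKRD37 and ZNF395 was not tested.

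The genes whose profiles over the 8 libraries lay nearest to a marker were found among 10680 genes with a mean of at least 5 FPKM, by the root mean square difference of centred log2 values. FAM162A was nearest to PGK1 (0.0573), AK4 (0.141) and PYGL (0.158). PPFIA4 and ANKRD37 both had SLC2A3 and TXNIP in their nearest 3, with PPFIA4 itself the third for ANKRD37 (0.299) and BNIP3P1 the third for PPFIA4 (0.264). TMEM45A lay nearest to RAB20 (0.17), SLC2A1 (0.183) and AK4 (0.196), and ZNF395 to LOX (0.106), NFIL3 (0.138) and ARRDC4 (0.181). WSB1 was nearest to AL590094.1, AL451165.2 and FAM210B (0.0947 to 0.137), NDRG1 to KCTD7, MEGF6 and AC107294.3 (0.146 to 0.172), ERO1A to SRR, GNG2 and SDC2 (0.0966 to 0.106), RORA to RAB15, GOLGA8A and LTK (0.0744 to 0.0844) and RIOK3 to SKIL, PVR and AL359915.2 (0.137 to 0.155). The points share the same 8 libraries, and a small difference is easier to reach for genes that vary little.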

How the data were processed

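Poly-A RNA of SK-N-MC cells was sequenced. Per the labels, the authors used STAR, Cuffnorm and hg19. The deposited values are FPKM, which the authors computed per gene with cuffnorm, and the study tested counts, not used here, with DESeq2. Groups came from sample titles. Biological duplicates are stated by the study, so p-values measure the spread of 2 libraries a group. Values were analysed as log2(FPKM + 1) for genes that reached 1 FPKM in 2 or more of 8 libraries. Each of 6 comparisons was fitted on its own libraries with limma 3.58.1 in R 4.3.3. Fits used a variance trend, two-sided tests, Benjamini-Hochberg adjustment over all genes tested and a threshold of 0.05. The fit was tried on simulated data. For small changes few genes were called there, and the pooled share of false calls among them lay above the threshold. The first criterion for passing failed and was replaced after the failure was seen, and the fit was not altered. The members and gene lists were chosen with earlier results of these data known. Besides the members, LOXHD1 and all paralogues, at most 4 called genes per list and comparison, list genes at 0 or too low to test, and 3 nearest genes per member were named. A withheld item is not reported here. Relative depth was read from the commonest ratio of low values, and no counting interval could be given. Alternatives were another pseudocount (0.1), filters, scalings, a shared fit, a replicate block, no variance trend and omission of each library.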

Additional observations from a re-analysis of the deposited data

Results flagged for a closer look

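For ANKRD37, both eKD1 libraries (12.4 and 10.3 FPKM) lay below, and both eKD2 libraries (23.7 and 29.1 FPKM) above, the control hypoxia libraries (16.5 and 17.2 FPKM). Neither difference from control hypoxia was called (limma adjusted p = 0.16 in eKD1 and 0.0692 in eKD2). Of all genes, 26% lay below both controls in eKD1 and 35.8% above both in eKD2, and the share with both traits was not computed. The direct log2 difference, eKD2 minus eKD1, was 1.148 (95% interval 0.68 to 1.62, limma adjusted p = 0.0866), which did not pass the threshold. Over the alternatives the limma adjusted p ranged from 0.0147 to 0.319. UFSP2, which shares exon bases with ANKRD37 on the opposite strand, was higher in eKD2 than in eKD1 by 0.74 (limma adjusted p = 0.112). The part of shared reads was not tested.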

How the results depend on the processing

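Of 720 single values recomputed, 566 kept their direction and side of the threshold, 121 lost a call, 16 gained one and 17 changed sign, of which 0 were called in either fit. Outside omissions, the sign changed with equal FPKM totals for RIOK3 in hypoxia (-0.15), FAM162A in eKD1 (0.051), and RORA (0.013) and PPFIA4 (0.040) in eKD2, and with median-of-ratios rescaling for FAM162A in eKD2 (-0.006). Equal totals moved the median of all genes by -0.19 in hypoxia, 0.14 in eKD2 and -0.13 in eKD1 against normoxia, and the members' median to 1.52 in hypoxia, 1.20 in eKD1 against normoxia and 1.75 in eKD2 against normoxia. Equal totals also left 1566 of 5510 called genes higher in hypoxia, against 2486 of 4946. The shared fit called 2 members in eKD1 (WSB1, PPFIA4; 761 of 15372 genes, against 10 in the fit of the comparison alone), 2 in eKD2 (TMEM45A, ZNF395; 2601 against 1477) and 3 in eKD2 against eKD1 (ANKRD37, ZNF395, PPFIA4; 1391 against 62), where the fit of the comparison alone called 0 members. In eKD2 the mean-5 filter called 1 (TMEM45A), median-of-ratios 1 (WSB1) and equal totals 2 (FAM162A, TMEM45A), and in eKD2 against eKD1 the mean-5 filter and equal totals called 1 each (ZNF395). In eKD1 against normoxia, 0 members were called with no filter (7 of 27155 genes) and 4 with no variance trend (298 of 15372, against 1662). With no variance trend, genes called fell to 28 in eKD2, 6 in eKD1 and 5 in eKD2 against eKD1.

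Replicate numbers did not pair the samples (correlations of replicate differences -0.0574 to 0.126). With the replicate block, members called were 7 in hypoxia (2570 of 15372 genes), without ERO1A and RORA (limma adjusted p = 0.0857 and 0.0576), 0 in eKD1 against normoxia (0 genes) and 3 in eKD2 against normoxia (FAM162A, TMEM45A, PPFIA4; 51 genes). The block called 0 genes in eKD1, eKD2 and eKD2 against eKD1.

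Omitting 1 library left the fit of 3 libraries with too little information to call any gene in any comparison. The shared fit of 7 libraries was chosen after seeing the data. It called most members in hypoxia and in both comparisons against normoxia, and a minority of all genes tested. In eKD1 it called no member. It called TMEM45A in eKD2 (without control hypoxia replicate 1) and RIOK3 in eKD2 against eKD1 (without eKD1 replicate 2). Members' medians ranged from 1.69 to 1.91 in hypoxia, -0.384 to -0.068 in eKD1, 0.052 to 0.172 in eKD2, 0.20 to 0.41 in eKD2 against eKD1, 1.35 to 1.47 in eKD1 against normoxia and 1.73 to 2.02 in eKD2 against normoxia. Single values that changed sign ranged from -0.003 to 0.16 for RIOK3 in hypoxia, in eKD1 from -0.366 to 0.029 for NDRG1, -0.689 to 0.251 for RIOK3, -0.048 to 0.328 for ERO1A and -0.062 to 0.022 for FAM162A, in eKD2 from -0.203 to 0.046 for RORA, in eKD2 against eKD1 from -0.006 to 0.32 for RORA, -0.10 to 0.46 for ERO1A and -0.51 to 0.11 for NDRG1, and from -0.61 to 0.33 for RIOK3 in eKD1 against normoxia. The causes were not tested.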
